A study of Rattus norvegicus with 8 samples.

Results

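Wnt4 was represented on the array by 1 probe set of 31099, 1368641_at, the only one whose sole platform gene symbol is Wnt4, and is 1 of 14218 genes so represented. It was chosen because its signal at 4 d stood far above that of untreated testis, so all its levels are given here as a description, with no test. The study used 8 Affymetrix Rat230_2 arrays, each with whole-testis RNA from adult Sprague-Dawley rats. Untreated rats gave 3 arrays, and rats given 1 gavage dose of Adjudin at 50 mg/kg body weight gave 2 arrays at 8 h and 3 arrays at 4 d. Adjudin is a drug known for loosening germ cells from Sertoli cells, the supporting cells of the seminiferous tubule. The labels name no genotype, transgene or vehicle-treated group and do not say whether an array held the RNA of 1 animal, so every p-value reflects the spread among these arrays alone, and that spread could be technical. The groups come from the sample titles.

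The arrays were hybridised on 3 days, called runs here. The first of them comprised replicate 1 of each group. The arrays of run 2 were the second control and the second 4 d replicate, and the rest (control 3, 8 h 2, 4 d 3) belonged to run 3. The settings files of control 2 and 4 d 2 give mouse as the sample type, against rat for the other 6 arrays. Arrays of the same group, these included, correlated at r of 0.954 to 0.978 in log2 signal. Each array was scaled to a 2% trimmed mean of 500, and a scaled signal of 100 on 2 or more arrays was the minimum for a test. Of the non-control probe sets, 51.6% to 59% reached 100 on any given array, and the number of arrays limits the precision. Below 100, fold changes depend mostly on the constant of 32 that was added before taking log2.

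Wnt proteins are secreted, lipid-modified signals that bind Frizzled receptors with an LRP co-receptor on nearby cells. In the canonical branch this stabilises beta-catenin, which enters the nucleus and acts with TCF/LEF factors, while other branches act on cell polarity and calcium. Wnt4 is known above all for its part in forming the kidney tubule and the ovary, where it acts with R-spondin 1 against the testis pathway. These statements are background and were not measured here.

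The 300 bases around the annotated start of Wnt4 (GRCr8, chr5:154797200-154797499, plus strand, from the RefSeq promoter table) are the only sequence examined for the gene. They run from 250 bases before that start to 50 after it. Whether transcription begins there in testis was not tested. The capitals mark matches to the GC box GGGCGG on either strand, some of which overlap.

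Wnt4: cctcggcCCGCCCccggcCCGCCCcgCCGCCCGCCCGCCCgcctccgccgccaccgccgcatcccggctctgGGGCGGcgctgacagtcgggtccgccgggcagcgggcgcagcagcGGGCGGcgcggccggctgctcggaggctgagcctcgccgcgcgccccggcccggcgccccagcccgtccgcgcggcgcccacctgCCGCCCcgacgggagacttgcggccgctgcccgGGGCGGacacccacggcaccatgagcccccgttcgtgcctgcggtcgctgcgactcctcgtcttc

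The window held 9 GC box matches, while 33.1% of 33469 promoters of the same length held at least 1. Its GC content was 83.3%, higher than that of 99.8% of the promoters, whose median was 51.7%. It held 53 CpG dinucleotides, against a median of 7. All motifs were searched on both strands. The TATA box TATAAA, present in 14.2% of promoters, had 0 matches in the window. The CCAAT box, searched as its name spells it and present in 37.5%, had 0 as well. For the AP-1 site TGANTCA, present in 7.33%, the count was also 0. The TCF/LEF letters CTTTGAT, present in 3.63%, were not found (0 matches). The E-box CANNTG, present in 72.1%, had 1 match. A match or its absence says only which letters stand in this window.

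In untreated testis the Wnt4 probe set was among the dimmest on the array, with scaled signals of 5, 11.8 and 9 in controls 1, 2 and 3. Between 2.52% and 8.14% of all non-control probe sets were dimmer than it on those arrays. At 4 d the signals were 1802, 2041 and 1870, and 91% to 92% of probe sets were dimmer. Every 4 d array lay above every control and 8 h array. Over all tested probe sets, 17.5% had every 4 d array above every control array, a share that is background here because Wnt4 was chosen on this contrast.

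**Figure D1:**
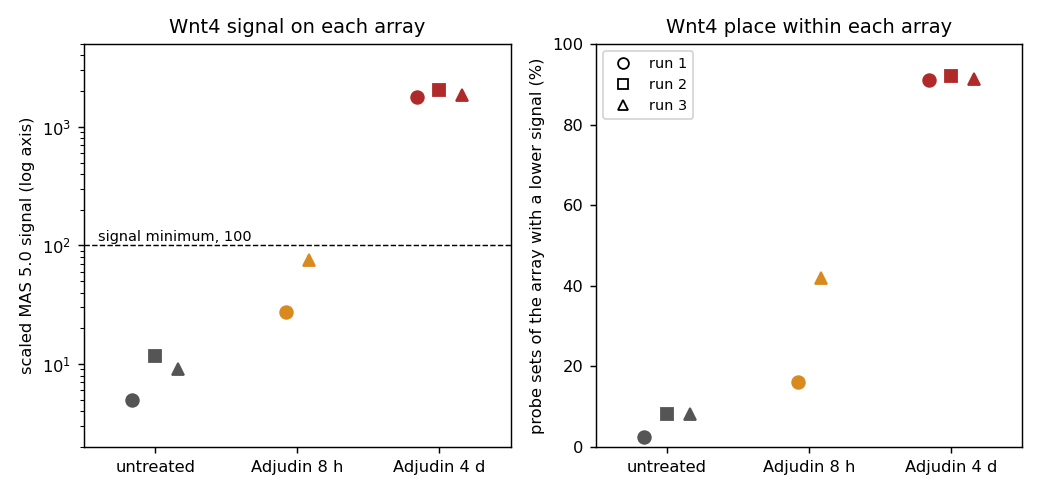
Wnt4 on each array by group, as scaled MAS 5.0 signal on a log axis (left) and as the percentage of non-control probe sets with a lower signal on the same array (right); each point is 1 array and its shape gives the run. The 3 points at 4 d lie between 1802 and 2041, and all 5 untreated and 8 h points lie under the dashed signal minimum of 100.

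The group mean went from 8.60 ± 3.42 (SD, n = 3) in untreated testis to 1904 ± 123 (SD, n = 3) at 4 d. On the log2(signal + 32) scale the difference was 5.58 (SE 0.24), the highest of 19785 tested probe sets, the next being 5.26. It was 5.63 in run 1, 5.56 in run 2 and 5.54 in run 3. The 4 d arrays differed among themselves by 1.13-fold from the lowest to the highest. Because no control array reached 100, the fold is best read as a bound: taking 100 as the floor, Wnt4 was at least 19-fold higher at 4 d. The direct ratio of the means, 222-fold, rests on control signals too low to be measured. Without the arrays of run 2 the log2 difference was again 5.58. With an added constant of 64 in place of 32 the difference was 4.76 and ranked 3 among the tested probe sets. Wnt4 passed the signal minimum through the 4 d arrays alone.

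At 8 h the scaled signals were 27.6 in 8 h 1 and 75.2 in 8 h 2, with a mean of 51.4 ± 33.6 (SD, n = 2). Both lay above all 3 controls and under 100. On these arrays 16% and 41.8% of probe sets were dimmer. The log2 difference from control was 0.98 (SE 0.27), with 0.69 in run 1 and 1.39 in run 3. Of the tested probe sets, 7.32% had both 8 h arrays above every control array, and of the 304 that were under 100 on all control and 8 h arrays, 10.5% did. The order of the group levels was therefore untreated, 8 h, 4 d, with no overlap between groups but with the lower levels both beneath the signal minimum. Between 8 h and 4 d the log2 difference was 4.6 (SE 0.27), with 4.94 in run 1 and 4.15 in run 3. In whole tissue, more cells making Wnt4 and more Wnt4 RNA per cell cannot be told apart.

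No other tested Wnt ligand differed from control at 4 d by more than 0.52 on the log2 scale, against 5.58 for Wnt4. Of the 18 others in the family, 12 had a probe set with 1 symbol and 9 passed the signal minimum. Of these 9, 0 rose and 0 fell at 4 d against control in limma. Benjamini-Hochberg adjustment was over all probe sets, of which 9.89% passed, as did 12.8% of 11241 genes. An unadjusted p under 0.05 was reached by 2 of the 9, against 3075 of all genes. At 8 h, 0 of 9 passed, against 0.0657% of probe sets and 0.0801% of genes in all. An unadjusted p under 0.05 was reached by 1, against 456 of the 11241 genes. The median log2 difference of the 9 at 4 d was -0.30, against 0.03 for all genes.

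Wnt6, a ligand of epithelia, had signals of 565, 539 and 361 in the controls and 701, 636 and 527 at 4 d, so the groups overlapped (log2 0.34, SE 0.20, adjusted p = 0.362 in limma). Wnt7a had 356, 356 and 359 in the controls and 239, 291 and 201 at 4 d. Each 4 d array of Wnt7a was lower than each control (log2 -0.51, adjusted p = 0.0910 in limma). Its adjusted p in limma was 0.0281 when blocked on run and 0.0316 after quantile normalization of the arrays. Wnt2 had 275, 290 and 210 in the controls, 330 and 324 at 8 h, and 175, 159 and 174 at 4 d. Its log2 difference at 4 d was -0.52 (adjusted p = 0.103 in limma, 0.0396 when blocked on run, 0.0332 after quantile normalization). The other tested Wnt2 probe set had -0.34 (adjusted p = 0.479 in limma without a block). The mean of the Wnt2 probe sets had -0.43 (adjusted p = 0.204 in limma without a block).

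The remaining tested ligands were Wnt1 (log2 -0.19 at 4 d), Wnt2b (-0.30), Wnt5a (-0.28), Wnt5b (0.47), Wnt8b (-0.39) and Wnt9a (-0.42), with adjusted p in limma of 0.429 to 0.819. Wnt10a, Wnt11 and Wnt16 did not pass the minimum. Wnt11, which acts mainly in the polarity branch, had signals of 7.2, 4.6 and 16.8 in the controls, 8.2 and 5.2 at 8 h, and 26.6, 81 and 47.8 at 4 d. All its arrays were thus under 100, with the 4 d arrays highest.

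**Figure D2:**
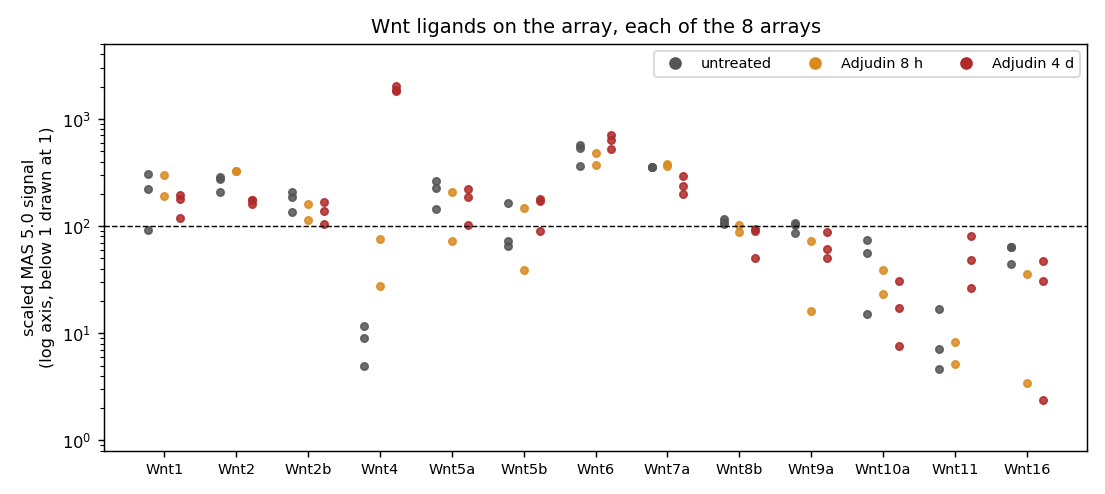
Scaled MAS 5.0 signal (log axis) of the 13 Wnt ligands with a probe set, each point being 1 array of untreated testis, Adjudin 8 h or Adjudin 4 d; the dashed line is the signal minimum of 100. The 4 d arrays of Wnt4, at 1802 to 2041, are at least 18-fold above the dashed line, and its other arrays lie under it.

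The rest of the pathway was read from 9 lists of 144 genes other than Wnt4, of which 119 were on the array and 92 were tested. At 4 d, 9 of the 92 rose and 5 fell. That is 15.2% of them, near the 12.8% of all genes that passed (7.63% higher and 5.19% lower). Of the 9 that rose, 3 (Fzd1, Myc and Vangl1) reached the signal minimum through the 4 d arrays alone, so the filter favoured their rise. They are described with their values and support no count: of the 88 genes that did not enter through the 4 d or the control arrays alone, 6 rose and 5 fell. Among those that fell, Sfrp2 entered through the control and 8 h arrays alone, so its fall was favoured in the same way. The median log2 difference of the 92 was 0.05, against 0.03 for all genes. When blocked on run 20 rose and 10 fell. Calls were more common among all probe sets under that block: of 19785, 2632 rose and 1819 fell, against 1218 and 738 without it. Without the arrays of run 2 only Wls, Rac1 and Wif1 passed. Leaving out 1 array lowered the count of 14 most without 4 d 1, to 5, and it was 6 without control 1 or without control 2. It was 8 without control 3 or without 4 d 2. At 8 h 0 of 92 passed in limma (8 had an unadjusted p under 0.05, against 456 of 11241 genes). When blocked on run 1, Jun, rose at 8 h, where 53 of 19785 probe sets rose. Between 8 h and 4 d, 10 of the 92 differed in limma, against 8.03% of all genes. These include Vangl1, Sfrp2 and Nfatc1, whose differences the filter favoured.

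**Figure D3:**
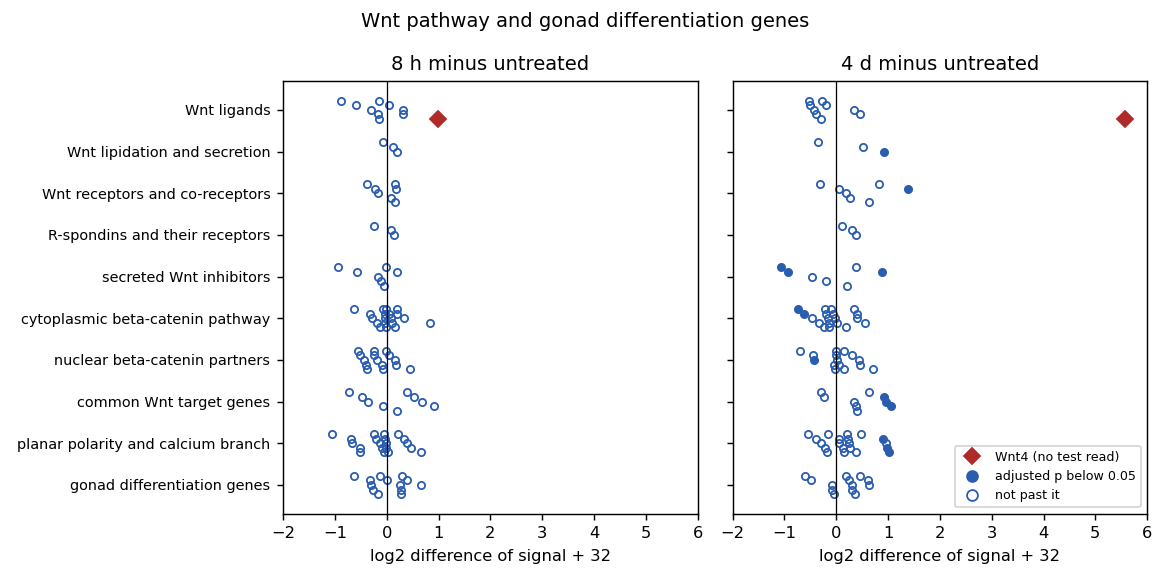
Log2 difference of signal + 32 for each tested gene of the pathway lists and of the gonad differentiation list, at 8 h (left) and 4 d (right) against untreated testis; filled points passed an adjusted p of 0.05 in limma, and the diamond is Wnt4, for which no test is read. Wnt4 lies at 5.58 at 4 d, and the highest other point, Fzd1, at 1.38.

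Of the genes that prepare Wnt proteins for release, Wls rose. Wls is the carrier that takes lipid-bearing Wnt proteins to the cell surface. Its signals were 401, 367 and 388 in the controls, 476 and 423 at 8 h, and 829, 697 and 748 at 4 d. The 4 d arrays were all above the rest (log2 0.92, SE 0.14, adjusted p = 0.00342 in limma). Porcn, the enzyme that attaches the lipid, had a log2 difference of -0.35 (adjusted p = 0.681), and the glypican Gpc4 one of 0.51 (adjusted p = 0.105 in limma, 0.00646 when blocked on run).

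Among 7 tested receptors and co-receptors, Fzd1 was the only call. Fzd1, a Frizzled receptor, had signals of 39.4, 21.2 and 22 in the controls and 107, 122 and 138 at 4 d, so it entered the test only through the 4 d arrays, where it was high (log2 1.38, SE 0.36, adjusted p = 0.0400 in limma). That call was lost without any 1 control or any 1 array at 4 d, with an added constant of 4 or 16, and without run 2. Fzd6 (log2 0.62, adjusted p = 0.0955) and the atypical receptor Ryk (0.82, adjusted p = 0.0631) passed when blocked on run. Lrp6, the canonical co-receptor, had a log2 difference of -0.32 (adjusted p = 0.393). Of the R-spondins and their receptors, 3 were tested and 0 passed (0 also at an unadjusted p of 0.05). Lgr6 had the smallest p, with a log2 difference of 0.29 and adjusted p = 0.460 in limma. Rspo1, the partner of Wnt4 in the ovary, lay between 3.2 and 42 on all arrays.

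Secreted inhibitors moved in both directions: of 7 tested, 1 rose and 2 fell. Wif1, which binds Wnt proteins outside the cell, had signals of 5125, 4501 and 5511 in the controls, 4468 and 4828 at 8 h, and 2427, 2837 and 2590 at 4 d. It was lower on every 4 d array (log2 -0.94, SE 0.12, adjusted p = 0.00159 in limma). Sfrp2, a decoy resembling the Frizzled ligand-binding part, went from 221, 285 and 209 to 95.4, 99.8 and 93.8 at 4 d (log2 -1.06, adjusted p = 0.0109), a call lost without control 2 or without run 2. It entered the test only through the control and 8 h arrays, where it was high. Sfrp1, of the same decoy family, went from 224, 231 and 199 to 511, 468 and 328 at 4 d. Its log2 difference was 0.89 (adjusted p = 0.0330 in limma), a call lost without any 1 control, without 4 d 1 or 4 d 2, with no signal minimum and without run 2.

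In the cytoplasmic part of the canonical branch, 2 of 19 tested genes fell and 0 rose. They were the casein kinases Csnk1d (log2 -0.73, adjusted p = 0.00963 in limma) and Csnk1g1 (-0.62, adjusted p = 0.0176), which phosphorylate pathway proteins. Of the 5 probe sets of Csnk1d, another fell (log2 -1.11) and the other 3 lay between -0.23 and 0.13, and the mean of all 5 did not pass. Csnk1g1 did not pass without control 1, control 2, 4 d 1 or 4 d 3. Neither kinase passed after equalising array medians or without run 2, nor did Csnk1d without 4 d 1. Beta-catenin itself, Ctnnb1, had signals of 3166, 3409 and 4064 in the controls and 4497, 3798 and 5240 at 4 d, so the groups overlapped. Its log2 difference was 0.34 (adjusted p = 0.207 in limma, 0.0220 when blocked on run).

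Of 15 nuclear partners of beta-catenin, the co-repressor Ctbp2 fell, with signals of 2528, 2574 and 3077 in the controls and 1963, 2106 and 1940 at 4 d. Its groups did not overlap (log2 -0.43, adjusted p = 0.04997 in limma), but the call was lost under 14 of 20 alternatives, including the loss of any 1 array and of run 2. Lef1, a factor that carries beta-catenin to DNA, had a log2 difference of 0.15 (adjusted p = 0.757).

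Of 9 tested genes that are common targets of Wnt signalling in other tissues, Id2 and Jun rose, and Myc, which entered the test only through the 4 d arrays, was called as well. None (0) fell. Myc had signals of 41, 47.8 and 51.6 in the controls, 89 and 99.6 at 8 h, and 168, 144 and 91.2 at 4 d (log2 1.05, adjusted p = 0.0362 in limma), all control and 8 h arrays being under the minimum. Id2, an inhibitor of differentiation factors, had 281, 441 and 280 in the controls and 754, 708 and 552 at 4 d (log2 0.96, adjusted p = 0.0340). Jun, a part of AP-1, had 314, 287 and 235 in the controls, 594 and 511 at 8 h, and 639, 524 and 497 at 4 d (log2 0.92, adjusted p = 0.00843).

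These 3 calls had limits. Jun at 8 h had the same difference from control (log2 0.92, adjusted p = 0.253 in limma, 0.0362 when blocked on run), and its other 2 probe sets had 0.38 and 0.34 at 4 d and did not pass. The mean of the Jun probe sets (0.54) did not pass, nor did Jun without run 2. Myc did not pass without any 1 control, without 8 h 2, with no signal minimum or after equalising medians, and it fell below the minimum and was not tested without 4 d 1, without 4 d 2 or without run 2. Id2 did not pass without control 1, control 3, 4 d 1 or 4 d 2, with no signal minimum, with no variance trend or without run 2. Axin2 and Lgr5, widely used readouts of canonical signalling, did not reach the minimum: Axin2 had 86.4, 97.6 and 75.4 in the controls and 115, 62.8 and 38.2 at 4 d. Its groups overlapped.

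In the polarity and calcium branch, of 20 tested genes, Rac1 and Nfatc2 rose, 0 fell, and Vangl1 was called after entering the test only through the 4 d arrays. Rac1, a small GTPase of the cytoskeleton, had 1125, 1385 and 1270 in the controls and 2308, 2400 and 2869 at 4 d (log2 0.98, adjusted p = 0.00469 in limma), and its second probe set rose as well (log2 0.66). It did not pass after equalising medians. Vangl1, a core polarity protein, had 87, 60.4 and 66.6 in the controls, 39.4 and 39.8 at 8 h, and 190, 136 and 206 at 4 d (log2 1.01, adjusted p = 0.0335). Nfatc2, a calcium-regulated factor, had 102, 124 and 122 in the controls and 264, 207 and 264 at 4 d (log2 0.90, adjusted p = 0.0196). Its dimmer probe set had a log2 difference of -0.48 that did not pass, and the mean of both, 0.21, did not pass either. Vangl1 did not pass without any 1 control or any 1 array at 4 d, and Nfatc2 did not pass without control 1, control 2, 4 d 1 or 4 d 3. Neither passed after equalising medians or without run 2, nor did Vangl1 with no signal minimum.

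The gonad differentiation list holds genes that act with or against Wnt4 in the early gonad. Of 22 on the array, 13 were tested, and 0 rose or fell at 4 d or at 8 h in limma. An unadjusted p under 0.05 was reached by 5 at 4 d, against 3075 of 11241 genes in all. At 8 h 2 reached it, against 456 of all genes. Dhh, a Sertoli cell signal, had the smallest p at 4 d, with 216, 192 and 212 in the controls and 296, 341 and 367 at 4 d (log2 0.62, adjusted p = 0.0711 in limma, 0.0286 when blocked on run). Foxl2, a factor of the ovary, ranged from 64.4 to 467 in the controls and from 97.4 to 278 at 4 d, so its groups overlapped. Fst, which is induced with Wnt4 in the ovary, had a log2 difference of 0.63 (adjusted p = 0.116 in limma, 0.0463 when blocked on run). When blocked on run, 2 genes of the list rose, Dhh and Fst, and 2 fell, Nr0b1 and Inhbb. Under that block 2632 of 19785 probe sets rose and 1819 fell. The Sertoli factors Wt1 and Gata4 had 0.24 and 0.30, neither past the threshold.

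Genes with the same shape as Wnt4 were few. Of 11241 tested genes, 143 lay under 100 on all control and 8 h arrays, 83 of those were at or over 100 on all 4 d arrays, and 4 were at or over 500 there. Each of the 143 entered the test through its 4 d arrays alone. These counts therefore partly follow from the filter and are a description. The 4 at or over 500 were Wnt4, Serpina3n, Hsd11b2 and Trim2. Serpina3n, a protease inhibitor, ranged from 28.4 to 70 in the controls and from 568 to 2284 at 4 d. Hsd11b2, the enzyme that inactivates glucocorticoid, ranged from 48 to 91.6 in the controls, was 39 and 78.4 at 8 h, and ranged from 636 to 865 at 4 d. Trim2, a ubiquitin ligase, ranged from 537 to 702 at 4 d. At 4 d the Wnt4 arrays had a standard deviation of 123 on a mean of 1904, and those of Serpina3n 863 on a mean of 1374. No gene (0) showed the mirror shape, at or over 500 on all control and 8 h arrays and under 100 on all 4 d arrays.

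**Figure D4:**
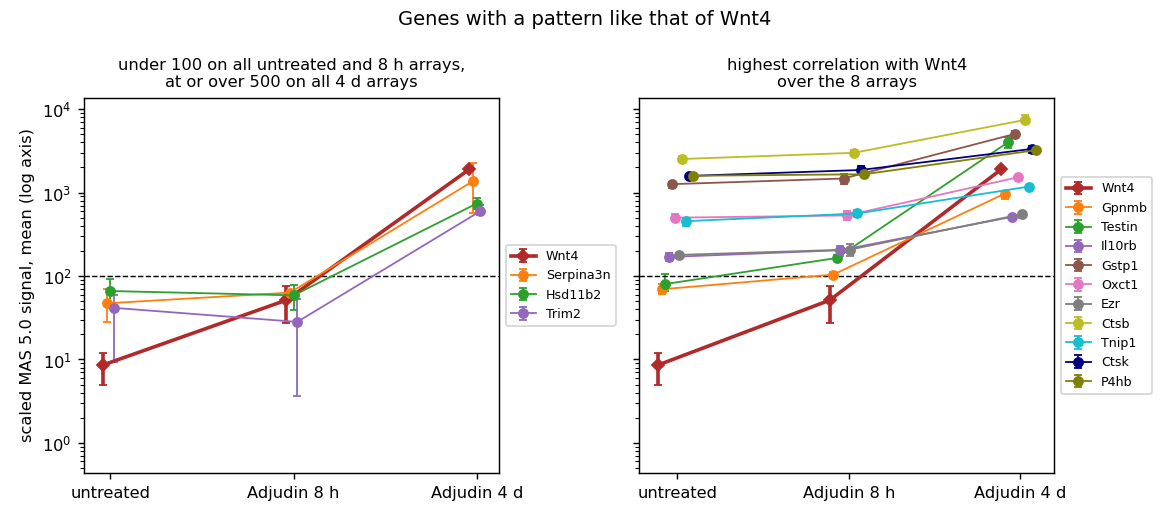
Mean scaled MAS 5.0 signal (log axis) by group, with bars from the lowest to the highest array, for the 4 genes under 100 on all untreated and 8 h arrays and at or over 500 on all 4 d arrays (left), and for Wnt4 with the 10 genes of highest correlation to it (right). Gpnmb and Testin also start near the dashed line at 100, while the other 8 start between 169 and 2528.

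By correlation over the 8 arrays on the log2 scale, the genes most like Wnt4 among 11240 others were Gpnmb (r = 0.995), Testin (0.994), Il10rb and Gstp1 (0.993 each), Oxct1 and Ezr (0.990 each), Ctsb (0.989), and Tnip1, Ctsk and P4hb (0.988 each). In all, 224 genes had an r of 0.95 or more. The arrays form 2 levels for Wnt4, so these values reflect a common step at 4 d and carry no test. Testin, a protein secreted by Sertoli cells, had control signals of 65.8 to 107, 8 h signals of 150 and 179, and 4 d signals of 3421 to 4581. Gpnmb, a glycoprotein of phagocytes and other cells, had 61.4 to 80.4 in the controls, 95 and 113 at 8 h, and 840 to 1046 at 4 d. In both, as in Wnt4, the 8 h arrays lay above the controls and far under the 4 d arrays. Both were picked for their correlation with Wnt4 over these same arrays, so that shared order is a description only. Of the promoter windows of these genes that were in the table, none had as many GC box matches as Wnt4: Oxct1 had 2, Il10rb, Gstp1, Ezr, Tnip1 and P4hb had 1 each, and Testin, Gpnmb, Ctsk, Serpina3n and Trim2 had 0.

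The genes next to Wnt4 on chromosome 5 (gene order of GRCr8) had log2 differences at 4 d of at most 1.69. Of the 10 nearest with a probe set, 5 on each side, 8 were tested, 2 rose at 4 d and 1 fell, where 7.63% of all genes rose and 5.19% fell. When blocked on run 4 rose and 1 fell, where 2632 of 19785 probe sets rose and 1819 fell. The nearest were Zbtb40 (log2 -0.13, adjusted p = 0.770 in limma) and Cdc42, a small GTPase (0.47, adjusted p = 0.403 in limma, 0.0106 when blocked on run). Cdc42 ranged from 2226 to 4736 in the controls and from 3528 to 6443 at 4 d, an overlap. The genes that rose were C1qa (1.5, adjusted p = 0.00164) and C1qc (1.22, adjusted p = 0.00177), chains of complement C1q made by macrophages. The third chain, C1qb, had 1.69 (adjusted p = 0.0692 in limma, 0.00136 when blocked on run). The gene that fell was 1700013G24Rikl (-0.64, adjusted p = 0.02). At 8 h 0 of the 8 passed, the unadjusted counts of all genes at that time being 456 of 11241.

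Markers of other cells were read beside Wnt4, and their part in its level was not tested. The counts stand against 7.63% of all genes higher and 5.19% lower at 4 d, and no list was tested as a whole. Those with the run as a block stand against 2632 of 19785 probe sets higher and 1819 lower. Of 11 tested markers of macrophages and other leukocytes, 7 rose, among them Cd74 (log2 1.88) and Lyz2 (1.81), and 1, Aif1, fell (10 and 1 when blocked on run). Their summed signal was 9470 to 10020 in the controls, from 8774 to 10200 at 8 h, and from 12570 to 15580 at 4 d. Of 15 Sertoli markers, 3 rose, namely Testin (5.19), Cst12 (0.97) and Cldn11 (0.76), and Rhox5 fell (-1.50), or 6 and 2 when blocked on run. Their sum went from 31640 to 36050 in the controls to 49290 to 61790 at 4 d. Of 10 Leydig markers, Scarb1 (1.25) and Cyb5a (0.85) rose (5 rose and 1 fell when blocked on run), the sum being 13410 to 17990 in the controls and 17200 to 27190 at 4 d.

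Among germ cell markers, 3 of 5 for round spermatids fell, including Tssk2 (-0.73), with a sum of 34780 to 39360 in the controls and 22720 to 25080 at 4 d. Of 8 for elongating spermatids 3 fell, led by Fscn3 (-1.35). Their sum was 173100 to 267700 in the controls and 124800 to 179900 at 4 d, an overlap. When blocked on run 5 of 5 round and 8 of 8 elongating spermatid markers fell, where 1819 of 19785 probe sets fell. Of 5 spermatogonium and 6 spermatocyte markers 0 passed at 4 d in limma. At an unadjusted p under 0.05 these counts were 1 and 0, against 3075 of 11241 genes. When blocked on run 1 spermatogonium marker rose. Myl9 (0.84), of 7 peritubular markers, and Cldn5 (0.91), of 6 endothelial markers, rose. When blocked on run 2 rose in each list and 1 peritubular marker fell. Hbb (1.28) and Alas2 (0.57), of 3 red cell markers, rose.

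Tissues that could be carried over with a testis were checked as well. The kidney and adrenal, known sites of Wnt4 expression, had markers at a summed signal of 303 to 360 over 6 probe sets in the controls and 186 to 289 at 4 d. With 5 of the 6 under the minimum, these sums lie near background. Aqp2, the only one over the minimum, had 142, 95.6 and 106 in the controls and 22, 79.6 and 83.4 at 4 d. Of 5 epididymis markers on the array only Cst8 passed the minimum, and it fell (-0.81). The epididymis list thus rests on 1 gene, and carry-over was not tested. At 8 h no marker (0) of any list passed in limma. Of 10 Leydig markers 4 had an unadjusted p under 0.05 at 8 h, against 456 of 11241 genes.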

How the data were processed

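Each array's deposited table gives 1 linear signal intensity per probe set, made with MAS 5.0, per the labels, and the design text also names GeneSpring 7.2. The deposited 2% trimmed mean was 250.08 to 250.12 on every array. Detection calls were not used here. The deposited settings files held no measurement and gave the hybridisation day, the fluidics protocol (version 4 in run 2, 5 otherwise) and the sample type.

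Signals were scaled to a trimmed mean of 500 (factor 1.999) and log2(signal + 32) was taken, which understates fold changes of dim genes. Non-control probe sets at or over 100 on 2 or more arrays, 19785 in all, were fitted over the 8 arrays with limma 3.58.1 in R 4.3.3 (lmFit, eBayes with a trend, no block). P-values were adjusted by Benjamini-Hochberg at 0.05. The fit was tested on simulated data.

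The platform annotation gave 1 gene symbol for 20826 of the 31042 non-control probe sets, several for 436 and none for 9780. The identifiers of 20758 matched the RefSeq gene table (GRCr8), with 0 symbols differing. A gene was represented by its brightest tested probe set. Named genes were all tested Wnt ligands, up to 4 genes per list past the threshold or else that with the smallest p, 10 genes most correlated with Wnt4, those of the same shape, and 5 neighbours on each side. Gpc4, Porcn, Fzd6, Ryk, Lrp6, Rspo1, Ctnnb1, Lef1, Axin2, Lgr5, Foxl2, Fst, Inhbb, Wt1, Gata4 and Wnt11 fall outside that rule and were named after their values were seen. Wnt4, the lists and the tests were chosen with earlier results of these data known.

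To check the pairing, each array's deviation from its group mean was correlated between groups: r was 0.353 to 0.507 within a run and -0.476 to 0.246 across runs. Replicate numbers of control and 4 d arrays therefore pair through the run, and values with the run as a block are given for the counts and named genes whose call they change.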

Additional observations from a re-analysis of the deposited data

Results flagged for a closer look

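The comparison of 4 d with 8 h tested whether the response differed between the times, in the same limma fit with Benjamini-Hochberg adjustment over all probe sets, where 8.03% of genes passed. Of the 92 tested pathway genes 10 passed, and 2 more did in the gonad differentiation list. Vangl1 (log2 1.53), Id2 (1.43), Nfatc1 (1.32), Sfrp1 (1.05), Rac1 (0.77) and Wls (0.71) were higher at 4 d than at 8 h. Sfrp2 (-1.04), Wnt2 (-0.84), Wif1 (-0.82) and Csnk1g1 (-0.78) were lower. Their adjusted p lay between 0.00909 for Wif1 and 0.0415 for Nfatc1. Vangl1 reached the signal minimum through the 4 d arrays alone, Sfrp2 through the control and 8 h arrays alone, and Nfatc1 without any 8 h array. The filter thus favoured the differences of Vangl1, Sfrp2 and Nfatc1. The count of 10 pathway genes includes them, so it is a description. Nfatc1, a calcium-regulated factor, and Wnt2 did not pass against control at 4 d. In the gonad list Nr0b1, a nuclear receptor of steroid-making cells, was lower at 4 d than at 8 h (log2 -1.25, adjusted p = 0.0105), with signals of 584, 668 and 800 in the controls, 1063 and 1108 at 8 h, and 359, 398 and 585 at 4 d. Dhh was higher (0.94, adjusted p = 0.0309). All 12 passed with the run as a block. The values rest on 2 arrays at 8 h: the count of 10 pathway genes was 0 without 8 h 2, 4 without 8 h 1, 1 without 4 d 1, 3 without 4 d 2, 4 without 4 d 3, 6 without control 2 and 1 without run 2.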

How the results depend on the processing

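The Wnt4 difference kept its direction under all 19 alternatives tried. At 4 d against control it was 7.28, 6.29 and 4.76 with an added constant of 4, 16 and 64, and 5.51 to 5.63 with 1 array left out. At 8 h it was 2.03 with a constant of 4, and 0.56 to 1.40 with 1 array left out. Between the times it was 5.25 with a constant of 4, and 4.17 to 5.02 with 1 array left out.

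Counts of calls moved more. In the pairing checks, probe sets called at 4 d numbered 1956 in the fit without a block (1218 higher, 738 lower), 3494 with the replicate number of the titles as a block and 4451 with the run as a block. At 8 h they numbered 13, 38 and 55, pathway genes at 4 d 14, 24 and 30, pathway genes at 8 h 0, 0 and 1 (Jun), and those differing between times 10, 19 and 15. After equalising medians these counts were 1152 and 20 probe sets and 8 (6 higher, 2 lower) and 5 genes. After quantile normalization they were 2121 and 19 probe sets and 20 (11 higher, 9 lower) and 8 genes. With no signal minimum 9 and 6 genes passed. Without run 2, added after seeing the data, 516 and 3 probe sets and 3 and 1 genes passed, with fewer arrays fitted. With 1 array left out the ranges were 899 to 1813 and 0 to 15 probe sets, and 5 to 13, 0 to 0 and 0 to 11 genes. The lowest counts came without 4 d 1 (899 and 5), either 8 h array (0 probe sets at 8 h) and 8 h 2 (0 between times). Where 1 array was left at 8 h, it was assumed to vary like the other groups.

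Wnt1 at 4 d (-0.19) ranged from -0.6 without control 3 to 0.12 without control 2, and was 0 without run 2. Of 274 refits of the 14 called pathway genes 74 lost the call and 0 reversed. Genes under the minimum in a setting were not tested there. Wnt4 has 1 probe set, so the mean of probe sets was not run for it. Detection at low signal limits the untreated and 8 h levels of Wnt4.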
